A study of Mus musculus with 9 samples.

Results

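The genes described here are the cytokines, chemokines and cytokine receptors that carry a C-C chemokine, C-X-C chemokine or interleukin symbol, measured by RNA sequencing in the left ventricle of 9 mouse samples. Members were the genes whose symbol starts with Ccl, Cxcl, Ccr, Cxcr or Il followed by a digit and whose RPKM (reads divided by gene length and by the library's counted reads) was at least 0.2 in at least 3 of the 9 libraries. The rule looks at no difference between groups. Of 118 matching symbols among 30128 genes, 50 qualified, and 17134 genes of the whole table passed the same level threshold. The 9 libraries form 3 groups of 3. The control group is labelled wild type, with no virus named. The other groups are db/db mice, which lack a working long form of the leptin receptor and become obese and diabetic, given an adeno-associated virus of serotype 9. In the null-virus group the label names a null vector. In the USP28-virus group the vector carried the deubiquitinase USP28 behind the cTnT promoter, which is active in cardiomyocytes, and the stated question was what USP28 overexpression does in the diabetic heart. Age, strain and sex are not given for any group.

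Chemokines are small secreted proteins that bind G protein-coupled receptors and direct the migration of leukocytes along a gradient. Interleukins bind receptors built from several subunits, some of which (the common gamma chain Il2rg, gp130 Il6st, Il10rb) are shared between ligands, and most of these receptors signal through JAK kinases and STAT factors, whereas the receptors of the IL-1 and IL-17 families signal to NF-kappa B. In the heart these genes are expressed by resident macrophages, endothelial cells, fibroblasts and infiltrating leukocytes, and to a lesser degree by cardiomyocytes.

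Each group had 3 libraries of 35970332 to 56497662 counted reads. The labels do not say whether the 3 libraries of a group came from separate animals, so p-values measure the spread between these libraries. The null-virus and control groups differ in both genotype and virus, and these cannot be told apart. Null-virus replicate 1 stood apart over all genes: its log2 values lay 0.35 on average from its group's means, and those of the other 8 libraries 0.18 to 0.24. Results of members that rest on it are given with and without it, and genes outside the members are given with it only. Usp28 itself averaged 13.2 ± 0.628 scaled RPKM in control libraries, 8.50 ± 1.41 after the null virus and 10.8 ± 0.824 after the USP28 virus (SD, n = 3). The difference between the db/db groups was not called (log2 difference 0.35, limma adjusted p = 0.23), and they overlapped, at 10.1 in null-virus replicate 1 and 9.83 in USP28-virus replicate 1. Cardiomyocyte markers summed to 21330 to 30862 scaled RPKM in the 9 libraries, so heart muscle RNA was abundant in each.

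Promoter sequence from RefSeq (build GRCm38.p6) was matched for 37 of the 50 members, and the 100 bases before the transcription start are shown for the members that the comparisons turn on, to set those with a TATA box beside those without. Il15ra, the subunit that binds IL-15 and presents it to neighbouring cells, has 2 annotated starts, at chr2:11705193-11705292 and chr2:11705612-11705711 on the plus strand. The other stretches are Cxcr4 at chr1:128592300-128592399 (minus strand), Ccl6 at chr11:83593088-83593187 (minus strand), Ccl8 at chr11:82115085-82115184 (plus strand), Ccl12 at chr11:82101745-82101844 (plus strand) and Il1b at chr2:129371140-129371239 (minus strand). Each is written 5′ to 3′ on the gene's own strand and ends at the base before the start. Capitals mark TATAAA on either strand, and in Cxcr4 matches on both strands overlap.
Il15ra start 1: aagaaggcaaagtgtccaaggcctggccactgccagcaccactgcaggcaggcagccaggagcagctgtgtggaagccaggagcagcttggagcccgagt
Il15ra start 2: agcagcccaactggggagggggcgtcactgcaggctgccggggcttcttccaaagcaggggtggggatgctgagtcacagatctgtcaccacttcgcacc
Cxcr4: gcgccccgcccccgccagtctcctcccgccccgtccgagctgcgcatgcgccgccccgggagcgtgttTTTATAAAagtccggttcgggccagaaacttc
Ccl6: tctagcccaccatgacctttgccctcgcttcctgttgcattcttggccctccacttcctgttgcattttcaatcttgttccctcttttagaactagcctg
Ccl8: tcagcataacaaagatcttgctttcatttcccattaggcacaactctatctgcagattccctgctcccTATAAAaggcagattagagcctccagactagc
Ccl12: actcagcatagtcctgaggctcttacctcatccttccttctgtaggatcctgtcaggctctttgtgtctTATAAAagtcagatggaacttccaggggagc
Il1b: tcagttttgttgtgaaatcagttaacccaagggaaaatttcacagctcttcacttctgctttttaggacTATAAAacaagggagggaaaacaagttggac
TATAAA stood in these 100 bases for Ccl8, Ccl12, Il1b and Cxcr4 and for neither start of Il15ra nor for Ccl6. Among the members' 46 windows, 7 (15.2%) held it, in Ccl8, Ccl9, Ccl12, Ccl25, Cxcr4, Il1b and Il33, against 5.56% of all 32851 windows. The matches began 29 to 32 bases before the start, except in Ccl9 (94 and 92) and Ccl25 (16). This motif was added to the search after values had been seen.

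The other motifs were searched on both strands over 250 bases before the start. A gamma-activated site, TTCNNNGAA, which STAT dimers bind, was found for Cxcl14 and Il12rb2 (2 of 46 windows, with 7.02% of all windows holding it). An NF-kappa B motif was found for Ccl9, Cxcl1, Il16, Il1r1 and Il2ra (5 of 46, with 7.25% of all windows holding it). The stretch of Il2ra, the alpha chain of the IL-2 receptor and the neighbour of Il15ra on chromosome 2, and that of the neutrophil attractant Cxcl1 show the NF-kappa B match in capitals. That of Il12rb2, the second chain of the IL-12 receptor, shows the STAT match. They lie at chr2:11642571-11642630 (plus strand), chr5:90891154-90891213 (plus strand) and chr6:67376272-67376331 (minus strand).
Il2ra: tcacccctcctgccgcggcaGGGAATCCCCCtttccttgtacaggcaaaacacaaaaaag
Cxcl1: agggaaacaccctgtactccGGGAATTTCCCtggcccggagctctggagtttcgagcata
Il12rb2: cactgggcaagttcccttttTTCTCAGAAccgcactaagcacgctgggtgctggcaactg
A match describes the letters in the window and is not a measured binding site.

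Most members were weakly expressed. The mean over the 9 libraries ran from 0.179 scaled RPKM (Il18) to 12.3 (Il10rb), with a median of 0.675 against 1.76 over all tested genes, where scaled RPKM is the deposited RPKM divided by a library scaling factor. It was at least 1 for 20 members and at least 5 for 8, and 22 members were under 0.5. The threshold was reached in all 3 groups by 48 members, in 2 groups by 1 member and in 1 group by 1 member. By the third-highest RPKM, the value that decides membership, Il18 (0.216), Ccl21b (0.220) and Il1b (0.232) stood just inside and Il21r (0.173), Il4 (0.172) and Il27ra (0.159) just outside.

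The chemokine ligands numbered 19 of 35 matching symbols. The highest were Ccl6, a macrophage-derived C-C chemokine, at 9.84 scaled RPKM over the 9 libraries, Ccl21a, which draws dendritic cells and T cells to lymphatic vessels, at 9.43, Cxcl12, the stromal ligand of CXCR4, at 8.82, and Cxcl14 at 6.50. Ccl21a varied within groups, at 9.80, 9.77 and 13.5 in control, 14.0, 6.65 and 6.70 with null virus and 8.08, 10.0 and 6.44 with USP28 virus. Ccl21a, Ccl21b and Ccl19-ps3 lie among near-identical copies on chromosome 4, so the assignment of reads between them is uncertain.

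Among the chemokine receptors, the means over the 9 libraries were 0.440 scaled RPKM for Ccr10, 0.368 for Cxcr4 and 0.256 for Ccr2. Ccr2, the receptor through which CCL2 recruits monocytes, read 0.156, 0.340 and 0.256 in control, 0.248, 0.357 and 0.106 with null virus and 0.316, 0.249 and 0.276 with USP28 virus, so its groups overlapped throughout.

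The interleukins and their soluble antagonists gave 8 of 28 symbols, led by Il15 (2.16 scaled RPKM over the 9 libraries), Il18bp, the secreted inhibitor of IL-18 (0.890), Il16 (0.663) and Il17d (0.591). The alarmin Il33 read between 0.139 and 0.784, Il34, a ligand of the CSF1 receptor, between 0.157 and 0.539, and Il18 between 0.0488 and 0.334, each with overlapping groups in all 3 comparisons. Il6 did not reach the threshold, with no value above 0.0725 and 6 of 9 libraries listed at 0, and neither did the anti-inflammatory Il10, with no value above 0.0735 and 6 libraries at 0. The IL-1 receptor antagonist Il1rn (up to 0.0424) and the IL-33 receptor Il1rl1 (up to 0.136) also stayed below it.

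The receptor subunits were the fullest class, with 18 of 37 symbols. Il10rb, shared by the IL-10 and interferon lambda receptors, stood at 12.3 scaled RPKM over the 9 libraries, the signal transducer Il6st at 9.83, Il11ra1, the IL-11 binding chain, at 7.46 and Il15ra at 3.24. Il6ra, the IL-6 binding chain, stood at 0.293, far below the Il6st it works with. Il10rb read 11.2, 12.1 and 12.7 in control, 15.7, 11.0 and 11.0 with null virus and 12.3, 12.0 and 12.6 with USP28 virus, so that null-virus replicate 1 was alone above the rest. Il1r1, the signalling receptor of IL-1, read between 0.926 and 1.58 with overlapping groups. Exons of 14 members overlap another gene, among them Il10rb (Gm21970, same strand), Il12rb2 (Serbp1, other strand), Il16 (Stard5, other strand) and Il18bp (Numa1, other strand), and how the counting shared such reads is not known here. The remaining member, Il4i1, is an amino acid oxidase named for its induction by IL-4, and shares exons with 3 other genes.

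**Figure D1:**
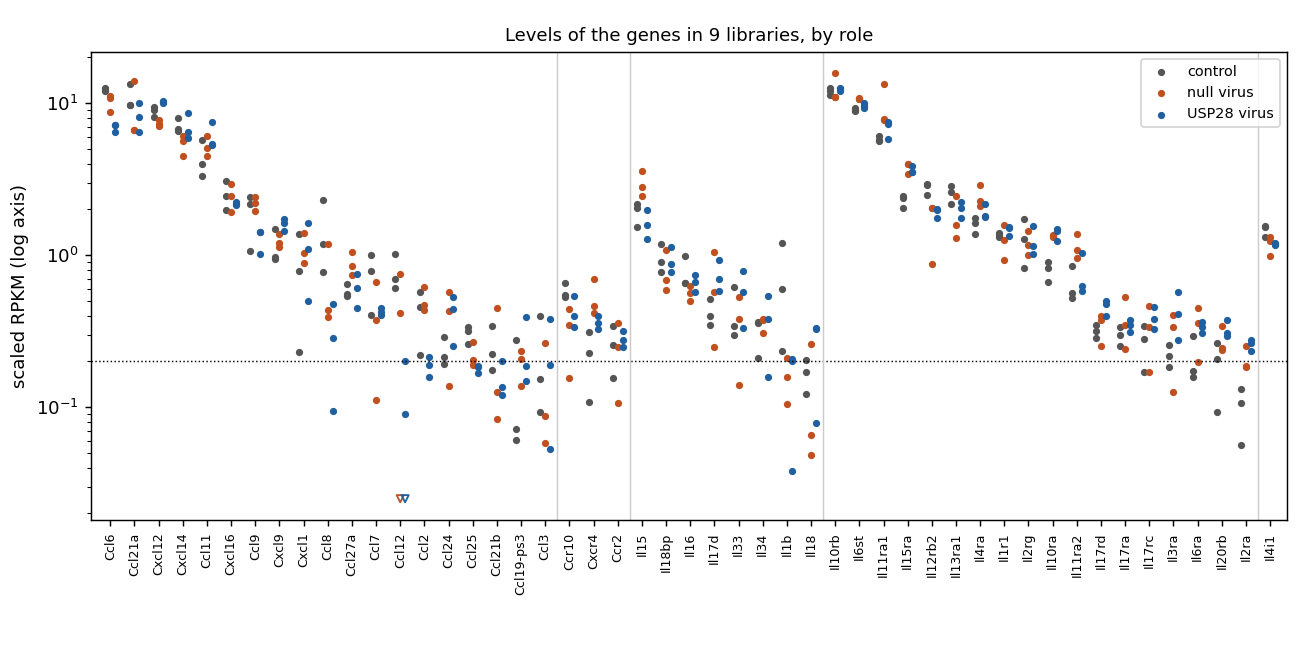
Scaled RPKM of 49 members in each of the 9 libraries on a log axis, ordered by mean within each role (from left: chemokine ligands, chemokine receptors, interleukins and antagonists, interleukin receptor subunits, Il4i1). The dotted line is the 0.2 threshold and open triangles mark the 2 libraries in which Ccl12 was listed at 0. Ccr10, Cxcr4 and Ccr2 sit below 1 in every library, while Ccl6, Cxcl12, Il10rb and Il6st stay above 5.

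In the db/db ventricles with null virus, 3 interleukin receptor subunits and 1 chemokine receptor were higher than in control. They were Il15ra, Il10ra, Il4ra and Cxcr4. In all, 5 of 50 members were called (4 higher, 1 lower), beside 18.1% of all 17134 genes tested called by the same rule, 8.35% higher and 9.71% lower (limma, Benjamini-Hochberg adjusted p under 0.05 over all genes tested), so the share of members called, 10.0%, was not above the background. At an unadjusted p under 0.05 there were 18 members, 36.0% of them, beside 34.1% of all genes. The 3 null-virus values lay wholly above the control values in 10 members and wholly below in 8, together 18 of 50, against 37.9% of all genes (18.2% above, 19.7% below). The median log2 difference of the members was 0.06, beside 0.01 over all genes. All log2 differences are on the log2(scaled RPKM + 0.1) scale, which understates changes of low genes.

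Il15ra read 2.47, 2.03 and 2.37 scaled RPKM in control and 4.01, 3.99 and 3.40 with null virus. All null-virus libraries lay above all controls, and the gene rose by a log2 difference of 0.71 (SE 0.11, limma adjusted p = 0.0048). Il10ra, the chain that binds IL-10, read 0.819, 0.671 and 0.900 in control and 1.33, 1.35 and 1.31 with null virus. It rose by 0.68 (SE 0.13, adjusted p = 0.011), with the null-virus values closer together than the controls. These calls held in all 9 fits that left out 1 library each.

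Il4ra, the chain shared by the IL-4 and IL-13 receptors, read 1.38, 1.77 and 1.64 in control and 2.09, 2.90 and 2.27 with null virus, with no overlap. Its log2 difference was 0.57 (SE 0.16, limma adjusted p = 0.038). The call held in 2 of the 9 fits leaving out 1 library, those without null-virus replicate 1 and without USP28-virus replicate 1, and leaving out any of the other 7 libraries ended it, with adjusted p up to 0.107. Library totals alone, no filter on low values and a fit of the 2 groups alone also ended it. Il4ra exons overlap Gm44876 on the other strand (1.27 in control and 1.88 with null virus, log2 difference 0.54, adjusted p = 0.11), and no source used here gives the strand setting of the counting, so reads of the pair cannot be told apart.

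Cxcr4, the receptor of CXCL12, read 0.109, 0.312 and 0.229 in control, from 11, 24 and 21 reads, and 0.463, 0.417 and 0.695 with null virus, from 25, 30 and 56 reads. Every null-virus library was above every control, with a log2 difference of 1.01 (SE 0.28, limma adjusted p = 0.040). The call held without control replicate 2 and without null-virus replicate 1, and leaving out any of the other 7 libraries ended it, with adjusted p up to 0.102, as did the same 3 changes of processing. Its ligand Cxcl12 read 8.17, 9.46 and 9.09 in control and 7.11, 7.26 and 7.72 with null virus. Those null-virus values were all below control, at a log2 difference of -0.27 (SE 0.09, adjusted p = 0.062).

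In bulk tissue, fewer cells of a type and less RNA per cell cannot be told apart. The summed level of 11 macrophage and monocyte markers was 40.6 to 50.5 scaled RPKM in control and 32.6 to 37.6 with null virus, 3 of its 9 tested genes being called lower (Cd68, Mrc1, Cx3cr1). Their part in the values of the chemokines and cytokines was not tested.

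Il1b, the cytokine released after inflammasome activation, read 0.235, 0.603 and 1.20 in control and 0.105, 0.158 and 0.212 with null virus. The groups did not overlap, though the control values were far apart, and the log2 difference of -1.40 (SE 0.51) did not pass (limma adjusted p = 0.089). Without control replicate 1, the lowest control, it did pass, with adjusted p = 0.036. The sum of 6 neutrophil markers was 10.1 to 17.9 scaled RPKM in control and 2.29 to 3.66 with null virus, nearly all of it S100a9, which was called lower. Of the defining neutrophil markers, Ly6g was at 0 in 8 of the 9 libraries. The part of such cells in the Il1b values was not tested. An antisense gene, Il1bos, overlaps Il1b exons.

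Several members came close to the threshold. Il15 read 2.05, 1.53 and 2.17 in control and 2.46, 3.60 and 2.83 with null virus, all above control, with a log2 difference of 0.60 (SE 0.21, limma adjusted p = 0.073). Without null-virus replicate 1 it was 0.72 and passed, with adjusted p = 0.039. Il6st read 8.91, 9.06 and 9.32 in control and 10.7, 10.6 and 10.9 with null virus, all above control (log2 difference 0.24, SE 0.08, adjusted p = 0.064, and 0.029 without null-virus replicate 1). Il11ra1 read 5.76, 5.63 and 6.05 in control and 13.5, 7.83 and 7.80 with null virus. Its log2 difference of 0.68 (SE 0.21, adjusted p = 0.051) rested in size on null-virus replicate 1, and without that library it was 0.42 with adjusted p = 0.028.

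Lower without a call were Ccr10, a receptor of CCL27 and CCL28, at 0.529, 0.544 and 0.661 in control and 0.155, 0.350 and 0.442 with null virus (log2 difference -0.77, SE 0.29, limma adjusted p = 0.097, and -0.45 with adjusted p = 0.16 without null-virus replicate 1), and Cxcl14, at 6.78, 8.02 and 6.52 and then 4.48, 5.67 and 6.04 (log2 difference -0.40, SE 0.17, adjusted p = 0.13). Without null-virus replicate 1, the lowest of its group, the Cxcl14 difference was -0.27 (limma adjusted p = 0.25). Il16, a T cell attractant, read 0.656, 0.988 and 0.658 and then 0.626, 0.502 and 0.562 (log2 difference -0.37, SE 0.19, adjusted p = 0.20). In these 3 genes no null-virus value reached the control range. Il12rb2 read 2.49, 2.92 and 2.90 in control and 0.874, 2.04 and 2.03 with null virus (adjusted p = 0.076, and 0.023 without null-virus replicate 1). Without null-virus replicate 1, 11 members were called (7 higher, 4 lower) in place of 5, while calls over all genes went from 3094 to 4438. Of the 5 calls, 4 held and 1 was lost, and the 7 added genes were Il11ra1, Il15 and Il6st above control and Ccl7, Ccl21a, Il12rb2 and Il13ra1 below.

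**Figure D2:**
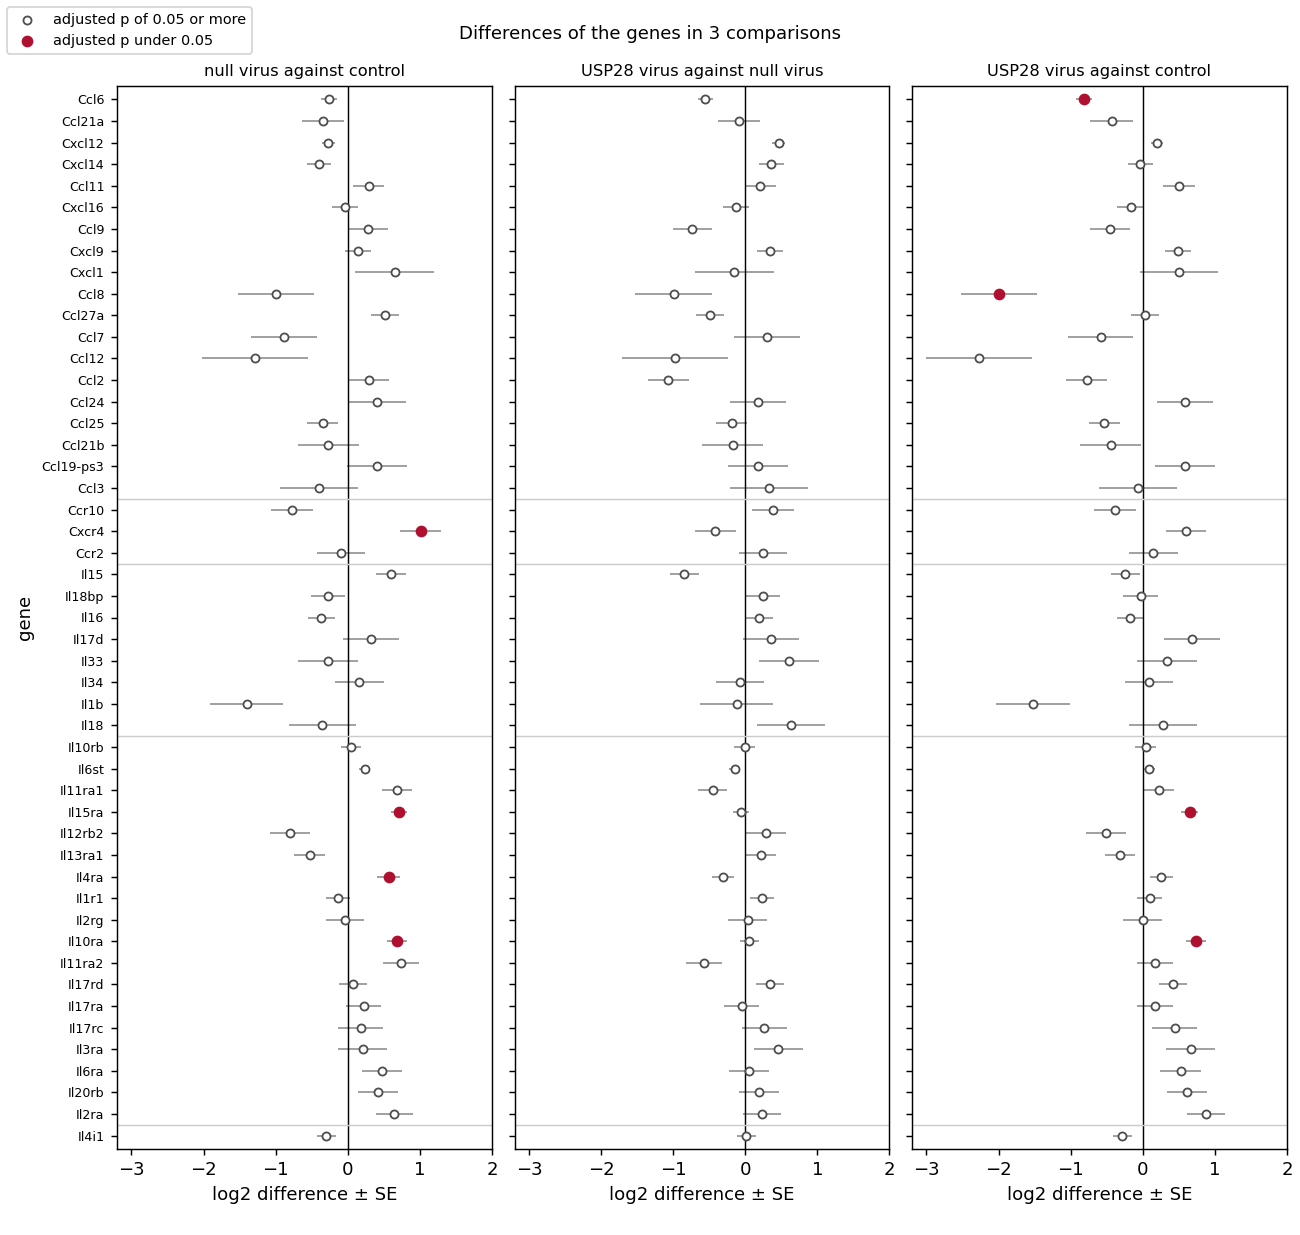
Log2 difference ± SE of 49 members in the 3 comparisons, with filled points for adjusted p under 0.05 (limma) and grey lines between roles. Filled points number 4, 0 and 4, and the widest error bars belong to Ccl12, Ccl8, Ccl3, Cxcl1 and Il1b.

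By role, the receptor subunits leaned upward in the null-virus group: 14 of 18 had a positive log2 difference, with a median of 0.23 and 3 called higher. Over all genes tested, 8730 of 17134 were positive. The 14 include Il2ra, which passed the level threshold only in db/db libraries. The chemokine ligands had 8 of 19 positive, a median of -0.26 and none called. Of the 8 interleukins, 3 were positive and none was called. These are descriptions of lists whose members share libraries, and the difference between roles was not tested.

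Between the db/db groups, which differ in the vector, no member passed the test: 0 of 50, against 0.414% of all genes tested (0.263% higher, 0.152% lower, limma). At an unadjusted p under 0.05 there were 7 members, 14.0% of them, beside 15.8% of all genes. Limma voom on the recovered reads called 2 members, Cxcl12 higher and Ccl6 lower, and 190 genes in all. The USP28-virus values lay wholly above the null-virus values in 2 members and wholly below in 8, together 10, against 22.1% of all genes (11.2% above, 10.9% below). The median log2 difference was 0.04 for the members and 0.01 for all genes. Dividing by library totals alone moves the all-gene median to 0.09 here, and changes the split of called genes from 45 higher and 26 lower to 33 and 6.

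Cxcl12 was the clearest of the separated members. It read 7.11, 7.26 and 7.72 with null virus and 10.1, 10.2 and 10.3 with USP28 virus, so that the USP28-virus libraries were close together and above every library of the other groups. The log2 difference was 0.46 (SE 0.09, limma adjusted p = 0.067). Without null-virus replicate 1 it was 0.44 with adjusted p = 0.021.

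Ccl6 read 8.81, 10.9 and 11.2 with null virus and 6.47, 7.21 and 7.17 with USP28 virus, with no overlap (log2 difference -0.55, SE 0.11, limma adjusted p = 0.074). Without null-virus replicate 1, the lowest of its group, the difference was -0.66 with adjusted p = 0.0039. Il15 read 2.46, 3.60 and 2.83 and then 1.27, 1.98 and 1.58, again apart (log2 difference -0.84, SE 0.21, adjusted p = 0.12). Leaving out the same library gave -0.96 with adjusted p = 0.043. Leaving out each of the other 8 libraries in turn gave no call for any of these 3 genes.

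Ccl2, the main monocyte attractant, read 0.471, 0.619 and 0.434 with null virus, from 16, 28 and 22 reads, and 0.159, 0.190 and 0.214 with USP28 virus, from 10, 9 and 12 reads. The groups were apart (log2 difference -1.07, SE 0.28, limma adjusted p = 0.14), and no setting tried gave a call. Cxcr4 read 0.401, 0.359 and 0.326 with USP28 virus, each below the null-virus values (log2 difference -0.41, SE 0.28, adjusted p = 0.49). Il6st read 10.1, 9.62 and 9.30 with USP28 virus, also below the null-virus values (log2 difference -0.15, SE 0.08, adjusted p = 0.37), as did Il11ra1 at 7.55, 5.79 and 7.26 (log2 difference -0.45, SE 0.21, adjusted p = 0.33, and -0.19 with adjusted p = 0.37 without null-virus replicate 1).

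Il15ra and Il10ra, called higher with null virus than in control, stood at similar levels in both db/db groups. Il15ra read 3.54, 3.86 and 3.53 with USP28 virus and Il10ra 1.24, 1.44 and 1.50, each overlapping the null-virus range. Cxcr4 did not overlap it, as given above. Il4ra stood nearer control with USP28 virus (log2 difference 0.26 against control) than with null virus (0.57 against control). Its db/db groups overlapped, and no setting run called it between them, with limma adjusted p from 0.18 to 0.65. The summed macrophage and monocyte markers were 29.5 to 36.5 scaled RPKM with USP28 virus, overlapping the 32.6 to 37.6 with null virus, and none of the tested markers in that list was called between the db/db groups. The neutrophil sum was 0.618 to 2.08 with USP28 virus, below the 2.29 to 3.66 with null virus, with no gene called. Their part in the Ccl6 and Ccl2 values was not tested.

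**Figure D3:**
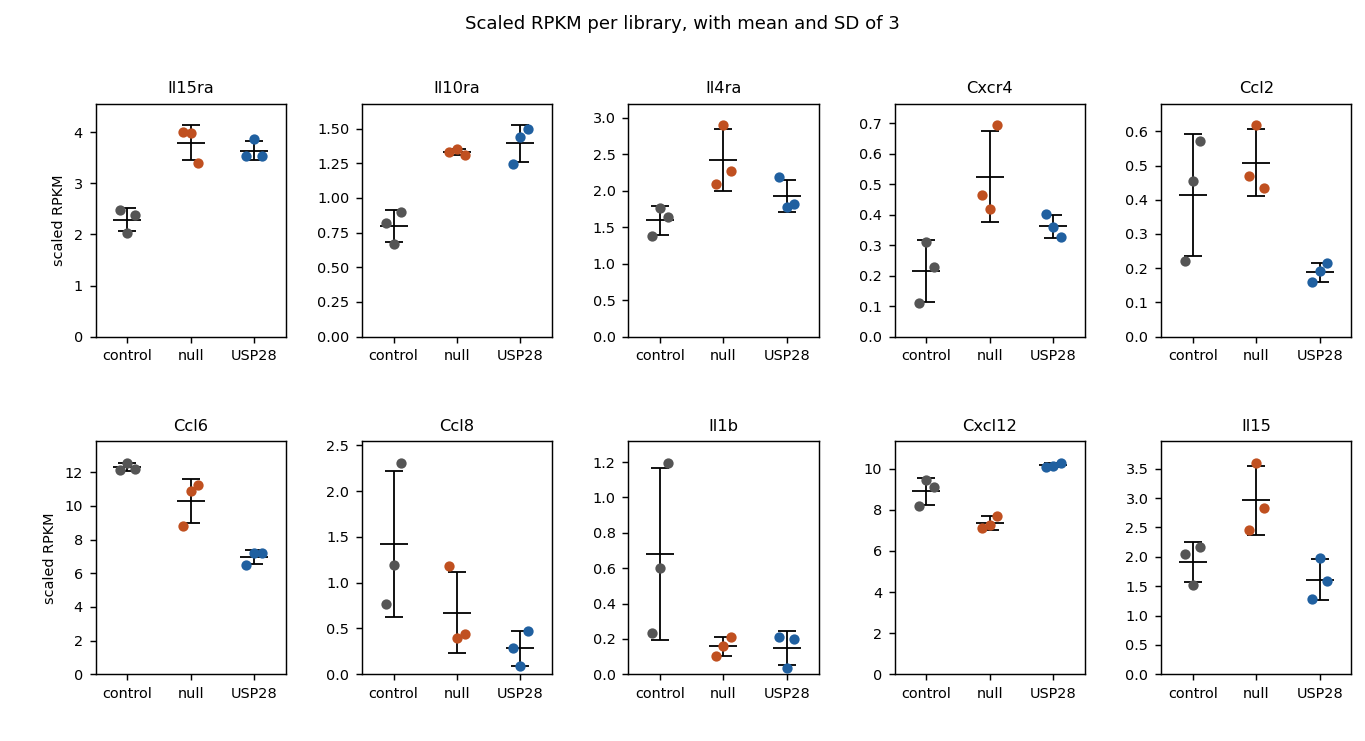
Scaled RPKM per library for 10 members in control, null-virus and USP28-virus groups (points), with the mean and SD of 3 (bar). Il15ra and Il10ra are higher in both db/db groups than in any control, and Cxcl12 and Il15 separate the db/db groups in opposite directions.

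Between USP28 virus and control, Il15ra and Il10ra were higher and the chemokines Ccl6 and Ccl8 lower. These 4 of 50 members compare with 9.36% of all genes tested (4.35% higher, 5.01% lower, limma), close to the members' 8.0%. At an unadjusted p under 0.05 there were 12 members, 24.0% of them, beside 25.7% of all genes. With library totals alone, 584 genes were called higher and 300 lower, in place of 746 and 858, and the members called were Il15ra and Il10ra higher and Ccl6 lower. The groups did not overlap in 20 members, 11 above and 9 below, against 41.5% of all genes (20.5% above, 21.1% below). The members' median log2 difference was 0.09, with 0.01 over all genes. The comparison shares its controls with the null-virus comparison and its treated libraries with the vector comparison, so the 3 are not independent.

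Ccl6 fell from 12.1, 12.6 and 12.2 scaled RPKM in control to 6.47, 7.21 and 7.17, a decrease seen in every library (log2 difference -0.81, SE 0.11, limma adjusted p = 0.0056). The null-virus values lay between those groups and overlapped neither. The call held in all 9 fits leaving out 1 library. It was the only call of a chemokine ligand to do so in the 3 comparisons.

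Ccl8, a monocyte attractant of the MCP family, read 0.771, 1.19 and 2.31 in control, from 22, 26 and 60 reads, and 0.284, 0.0942 and 0.477 with USP28 virus, from 8, 2 and 12 reads. The groups were apart, and the log2 difference was -1.99 (SE 0.53, limma adjusted p = 0.050, just under the threshold). The call held in 1 of the 9 fits leaving out 1 library, that without null-virus replicate 1, and leaving out any of the other 8 libraries ended it, with adjusted p up to 0.165. It was also lost under both other scalings, with no filter on low values and with either other pseudocount, at adjusted p of 0.050 to 0.094. A fit with the replicate number as a block and limma without trend or robust prior ended it too. Null-virus values were 1.18, 0.394 and 0.439, with replicate 1 inside the control range and the others below it.

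Ccl12, another MCP-family chemokine and a neighbour of Ccl8, read 0.700, 0.612 and 1.03 in control, from 21, 14 and 28 reads, and 0.202, 0.0897 and 0 with USP28 virus, from 6, 2 and 0 reads. It had the largest difference of any member in the 3 comparisons (log2 difference -2.27, SE 0.74), but did not pass (limma adjusted p = 0.090). The null-virus values of 0.748, 0 and 0.418 overlapped both other groups. Adjusted p was 0.037 without null-virus replicate 1, 0.023 without null-virus replicate 2 and 0.011 with the 2 groups fitted alone.

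Il15ra was higher by a log2 difference of 0.65 (SE 0.11, limma adjusted p = 0.013) and Il10ra by 0.74 (SE 0.13, adjusted p = 0.015), with every USP28-virus library above every control in both. The Il15ra call was lost without control replicate 2 or 3 or USP28-virus replicate 1 or 2, with adjusted p up to 0.058. The Il10ra call was lost without control replicate 2 or USP28-virus replicate 2 or 3, with adjusted p up to 0.063. Summed endothelial markers were 67.9 to 79.8 scaled RPKM in control, 84.3 to 110 with null virus and 91.6 to 106 with USP28 virus, and the sum of 4 general leukocyte markers was 1.97 to 3.26, 1.97 to 2.91 and 2.21 to 2.77. The leukocyte sum overlapped between all groups. Summed fibroblast markers were 202 to 231 scaled RPKM in control, 282 to 320 with null virus and 292 to 329 with USP28 virus, above control in every db/db library. The 7 genes of that list did not move alike. Against control, 1 was called higher and 2 lower with null virus (Lum, Col1a1, Gsn), and 1 higher and 1 lower with USP28 virus (Col1a1, Gsn). Summed adipocyte markers were 68.0 to 101 in control, 184 to 306 with null virus and 146 to 165 with USP28 virus, and of their 5 genes only Fabp4 passed the level threshold, being called higher in both db/db groups. The part of these lists in the Il15ra and Il10ra differences was not tested.

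Il1b with USP28 virus read 0.209, 0.0379 and 0.202, below every control (log2 difference -1.52, SE 0.51, adjusted p = 0.099, and 0.047 without control replicate 1). Ccl2 was also below every control (log2 difference -0.78, SE 0.28, adjusted p = 0.13, and 0.038 without control replicate 1). Cxcl12 exceeded every control (log2 difference 0.19, SE 0.09, adjusted p = 0.20), as did Cxcr4 (0.60, SE 0.28, adjusted p = 0.22), Il4ra (0.26, SE 0.16, adjusted p = 0.34), Il17d (0.68, SE 0.39, adjusted p = 0.31) and Il6ra (0.52, SE 0.28, adjusted p = 0.28). Of the 18 receptor subunits, 15 had a positive difference, with a median of 0.24, while the 19 chemokine ligands had 7 positive and a median of -0.17. Over all genes tested, 8770 of 17134 were positive. The 15 again include Il2ra.

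**Figure D4:**
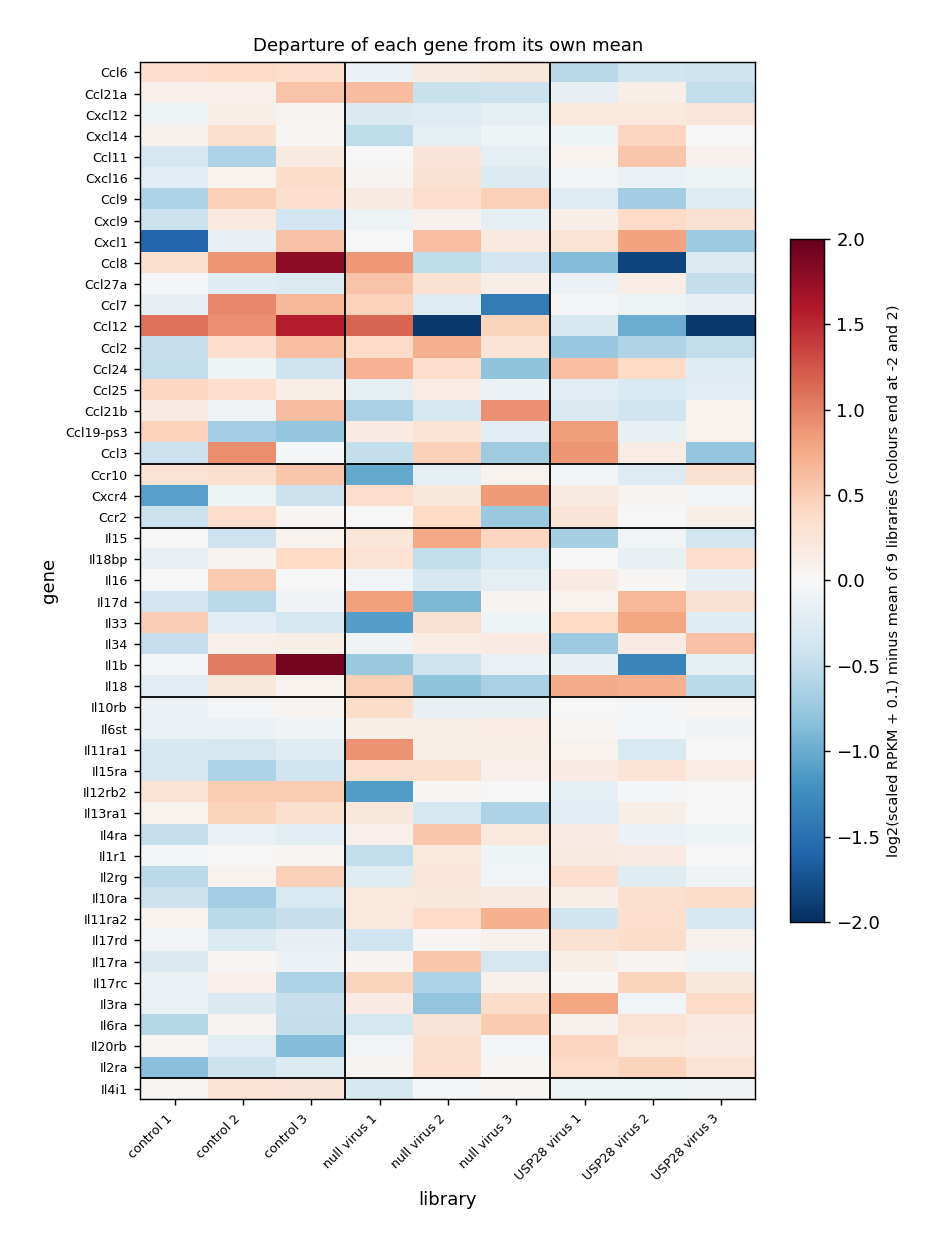
Departure of 49 members, each from its own mean over the 9 libraries, as log2(scaled RPKM + 0.1), with rows by role and columns by library. Ccl8 and Ccl12 are above their mean in every control column, and Ccl7 and Il1b in control replicates 2 and 3 but not in replicate 1. Null-virus replicate 1 is also above the mean in Ccl7, Ccl8 and Ccl12. It differs from its group in Il11ra1 (13.5 against 7.83 and 7.80) and Il12rb2 (0.874 against 2.04 and 2.03).

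The groups overlapped in all 3 comparisons for 20 of the 50 members. The 20 members were the ligands Ccl3, Ccl7, Ccl11, Ccl19-ps3, Ccl21a, Ccl21b, Ccl24, Cxcl1 and Cxcl16, the receptor Ccr2, the cytokines Il18, Il33 and Il34 with the antagonist Il18bp, and the subunits Il1r1, Il2rg, Il10rb, Il13ra1, Il17ra and Il17rc. Among the uncalled rest, the T cell attractant Cxcl9 read 1.44, 1.72 and 1.64 with USP28 virus, above the null-virus values of 1.20, 1.38 and 1.13, while its controls of 0.938, 1.49 and 0.972 overlapped both. Ccl25, the ligand of CCR9, read 0.339, 0.318 and 0.262 in control, 0.189, 0.267 and 0.205 with null virus and 0.185, 0.168 and 0.186 with USP28 virus, lowest in the last group. Il3ra, Il17rd and Il20rb, each under 0.6 in all libraries, were above every control with USP28 virus.

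Neighbouring members did not all move alike. On chromosome 11 (82035571 to 82116799, GRCm38), Ccl2, Ccl7, Ccl11, Ccl12 and Ccl8 follow one another. Ccl8 and Ccl12 were below control in every USP28-virus library, whereas the eosinophil attractant Ccl11 read 3.97, 3.30 and 5.75 in control and 5.34, 7.50 and 5.42 with USP28 virus, overlapping on the high side. Ccl7 read 0.402, 0.996 and 0.786 and then 0.452, 0.421 and 0.406, overlapping on the low side. A second group on chromosome 11 holds Ccl9, Ccl6 and Ccl3. Ccl9, a macrophage-derived chemokine related to Ccl6, read 1.95, 2.21 and 2.41 with null virus and 1.42, 1.01 and 1.43 with USP28 virus, apart as in Ccl6, while in control it read 1.07, 2.40 and 2.17. Ccl3 overlapped in every comparison.

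On chromosome 2, Il2ra (11642807 to 11693193) lies next to Il15ra (11705290 to 11734317). Il2ra was low, at 0.0565, 0.107 and 0.131 in control, 0.188, 0.251 and 0.185 with null virus and 0.263, 0.278 and 0.235 with USP28 virus. It was above every control in both db/db groups, but it was not called in either comparison (limma adjusted p = 0.12 and 0.072, and 0.031 and 0.012 with limma voom on the recovered reads). It reached the 0.2 RPKM threshold in 4 libraries, none of them a control. It is thus a member only through the groups where it was high, and its separation from control is not independent of the rule. Il11ra1 and Ccl27a overlap on opposite strands of chromosome 4. Ccl27a read 0.648, 0.553 and 0.538 in control and 1.04, 0.846 and 0.745 with null virus, highest in the same library as Il11ra1. It was not called (limma adjusted p = 0.097, and 0.19 without null-virus replicate 1). Without the strand setting, reads of the pair cannot be told apart.

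Related chemokine and cytokine genes outside the naming rule and genes of the signalling pathways were counted in 6 lists, in none of which a gene was called between the db/db groups. Over all genes tested, 18.1% were called with null virus against control, 9.36% with USP28 virus against control and 0.414% between the db/db groups. The counts of all 6 lists stand beside these shares, and no list was tested as a set. Among 11 tested chemokine genes outside the naming rule, 2 were higher and 1 lower in each db/db group against control. Rarres2, the chemoattractant chemerin, went from 5.97 ± 0.417 scaled RPKM in control libraries to 9.93 ± 1.10 with null virus and 9.94 ± 1.15 with USP28 virus (SD, n = 3), and Ccrl2, a non-signalling chemerin receptor, was 0.664 ± 0.111, 1.09 ± 0.0620 and 1.61 ± 0.0208. The gene called lower was the fractalkine receptor Cx3cr1, itself one of the macrophage markers.

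Among 30 tested cytokine and receptor genes outside the rule, 4 were higher and 2 lower with null virus, and 3 higher and 2 lower with USP28 virus, against control. Ifngr2, the second chain of the interferon gamma receptor, went from 18.5 ± 1.91 in control libraries to 8.55 ± 0.722 with null virus and 10.7 ± 1.66 with USP28 virus, and Csf1, the macrophage growth factor, 4.10 ± 0.333, 2.11 ± 0.202 and 2.46 ± 0.499. Both fell in each db/db group (limma adjusted p up to 0.022), and Osmr, the oncostatin M receptor that pairs with Il6st, rose with null virus (log2 difference 0.72, SE 0.15, adjusted p = 0.015).

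Of 23 JAK, STAT and SOCS genes, 2 were higher (Stat2, Pias1) and 1 lower (Stat5a) with null virus, and 1 was higher (Stat2) with USP28 virus. Stat5a, which acts downstream of the IL-2 and IL-15 receptors, fell by 0.91 on the log2 scale (SE 0.17, limma adjusted p = 0.0089). Of 29 IL-1 receptor and NF-kappa B genes, 2 were higher and 2 lower with null virus and 2 higher with USP28 virus. Irak2, an IL-1 receptor kinase, and the NF-kappa B inhibitor Nfkbia were the higher genes in both groups, and Traf3 fell by 1.03 with null virus (SE 0.20, adjusted p = 0.010).

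Of 6 inflammasome genes, 1 was higher and 1 lower with null virus and 2 were higher with USP28 virus. Pycard, the adaptor that links sensors to caspase-1, fell with null virus (1.06 ± 0.0443 scaled RPKM to 0.448 ± 0.187, limma adjusted p = 0.021), and the pore former Gsdmd rose in both db/db groups (2.19 ± 0.0901, 3.43 ± 0.283 and 3.86 ± 0.393). Of 13 G protein, kinase and arrestin genes of chemokine receptor signalling, 2 were higher with null virus (Grk5, Rgs2) and 1 with USP28 virus (Rgs2), with none lower. Grk5 varied widely with null virus, at 18.4 ± 7.01 scaled RPKM, beside 8.19 ± 0.462 in control and 9.17 ± 0.320 with USP28 virus. The 18 list medians of log2 differences ran from -0.20 to 0.23, beside 0.01 over all genes in each comparison.

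The immune marker sums that stand beside these results differed in size between cell types. Neutrophil markers were highest in control, macrophage and monocyte markers were higher in control than in either db/db group, and T cell markers (0.290 to 1.08 over the 9 libraries) were near the limit of measurement. Erythroid markers, a sign of retained blood, ran from 139 to 524 in control, 128 to 197 with null virus and 108 to 222 with USP28 virus. They overlapped between groups, and the part of blood cells in Il1b and Ccl8, each higher in control replicates 2 and 3 than in replicate 1, was not tested.

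**Figure D5:**
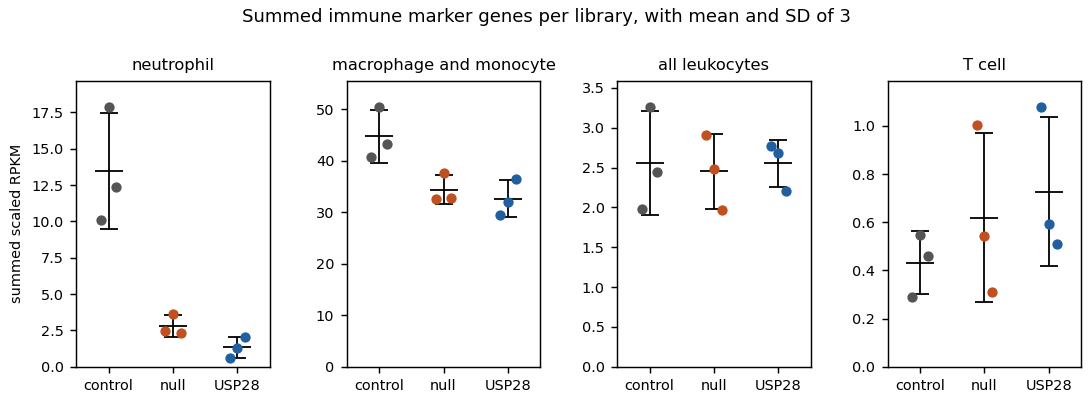
Summed scaled RPKM of 6 neutrophil, 11 macrophage and monocyte, 4 general leukocyte and 7 T cell marker genes per library (points), with mean and SD of 3. The control libraries lie above all others for neutrophil markers (10.1 to 17.9) and for macrophage and monocyte markers (40.6 to 50.5), and the leukocyte sums overlap.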

How the data were processed

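Polyadenylated RNA of 9 left ventricle samples was made into directional libraries and read from both ends, per the labels' protocols. HISAT2, DESeq2 and the human build name GRCh38 stand in the submitters' processing notes with no role. Coordinates match mouse GENCODE M21 for 25445 of 30128 genes, so GRCm38 positions are given. No source used here names the counting program or the strand it assumed. The authors deposited RPKM values. 99.9839% of the values above 0 are whole multiples of 1 read per library (tolerance 0.01 reads), which gave the reads and depths. Of values of 2 to 10 reads, 83.3% to 85.4% were even in each library, so single reads may not be independent fragments.

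RPKM was rescaled by trimmed means (30% of ratios and 5% of levels trimmed), and log2(scaled RPKM + 0.1) was fitted with limma 3.58.1 in R 4.3.3 (trend and robust prior), with 3 groups in 1 fit. P-values were Benjamini-Hochberg adjusted over 17134 genes in each comparison, and the threshold was 0.05. The fit was tested on simulated data. A library listed at 0 allows up to 3 reads.

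Named were the members called in any comparison, the 4 highest of each role, a fixed list (Ccl2, Ccr2, Cxcl12, Cxcr4, Il1b, Il1r1, Il1rn, Il6, Il6ra, Il6st, Il15, Il18, Il33, Il1rl1, Il10, Il34) and uncalled members with separated groups and a log2 difference of at least 1. Other members, among them Il2ra, Il12rb2, Ccl9 and Cxcl9, were named after their values were seen. The members and gene lists were chosen with earlier results of these data known. Differences are given only where groups did not overlap. 1 member that enters the counts is not reported here and is not drawn.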

Additional observations from a re-analysis of the deposited data

How the results depend on the processing

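Alternatives were 2 other scalings, another threshold and none, 2 other pseudocounts, each 2 groups fitted alone, a replicate block, limma without trend or robust prior, limma voom on recovered reads, and each library left out in turn. For null virus against control, the 5 members called became 3 with library totals alone, 3 with no filter, 2 with the 2 groups alone and 9 with voom, and 2 to 11 with 1 library left out. All genes called (3094) became 2054 with no filter, 1494 with the 2 groups alone and 1312 to 4438 with 1 library left out. The members' median log2 difference turned from 0.06 to -0.043 at a threshold of 0.5 RPKM, and ran from -0.02 to 0.11 with 1 library left out.

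For USP28 virus against null virus, the 0 members became 2 with voom and 0 to 3 with 1 library left out. All genes called (71) became 39 with library totals, 10 with no filter, 1 with the 2 groups alone, 18 without trend and robust prior, 190 with voom and 0 to 879 with 1 library left out. The members' median of 0.04 became 0.12 with library totals, and ran from -0.01 to 0.09 with 1 library left out. For USP28 virus against control, the 4 members became 7 with the 2 groups alone, 7 with voom and 1 to 7 with 1 library left out. All genes called (1604) became 884 with library totals, 928 with no filter, 3686 with the 2 groups alone and 283 to 4091 with 1 library left out. The members' median ran from -0.034 to 0.15. Over all genes, voom on recovered reads called 1668 higher and 1921 lower, 117 and 73, and 1068 and 1282 in the 3 comparisons. The cause of these shifts was not tested.

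No pairing by replicate number was visible: departures from group means correlated at -0.03 to 0.06 between same-numbered libraries of different groups. With 3 libraries a group, these correlations cannot exclude a shared batch. With the number as a replicate block, members called were 4, 0 and 3 and all genes called 2637, 0 and 1110 in the 3 comparisons. Under the block Il4ra, Cxcr4 and Ccl8 were no longer called and Il11ra1 was. Every difference given for a named member kept its direction under all settings run. With 3 libraries a group and few reads for Ccl8, Ccl12, Cxcr4 and Ccl2, small differences were not detectable.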
